A study of Mus musculus with 64 samples.

Results

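The genes described here encode the subunits, assembly factors and activators of the mouse proteasome, and were read in hippocampus and liver of wild-type (WT) and Angelman syndrome (AS) mice given corticosterone (CORT). Members were the protein-coding genes whose symbol starts with Psma, Psmb, Psmc or Psmd and a digit, together with Psme1 to Psme4. This rule found 44 genes in each table, of 55414 gene IDs in the acute cohort and 55573 in the continuous cohort. One of them, Psmc3ip, is a meiotic recombination factor and no proteasome gene. It stays in the counts of members, is named where it was called, and belongs to none of the modules of the 43 proteasome genes. The 43 comprised 31 constitutive subunits of the mature particle, 3 immunoproteasome subunits (Psmb8, Psmb9 and Psmb10), 4 activators, 3 assembly chaperones, the testis form Psma8 and the thymic form Psmb11.

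All animals were male F1 hybrids of C57BL/6J and 129sv, aged 10 to 18 weeks. AS mice inherited from the mother a Ube3a allele lacking exon 5 and from the father an intact one (Ube3a m-/p+). UBE3A, a ubiquitin ligase, is then lost from neurons, in which the paternal copy is silent, whereas other cells keep that copy. The acute cohort gave the left hippocampus of 24 mice, 6 in each group, taken 3 h after a subcutaneous injection of 3 mg/kg CORT or of vehicle (ethanol in PBS). The continuous cohort gave hippocampus and liver of 20 mice, 5 in each group, which had carried for 5 days a pellet of 20 mg CORT with 80 mg cholesterol, or a vehicle pellet of 100 mg cholesterol. CORT is the main glucocorticoid of rodents, and the question was whether loss of UBE3A changes the response to it. Libraries carry numbers in their titles (H for hippocampus, L for liver), which are used below as mouse numbers. No label states that hippocampus and liver of the same number come from the same mouse.

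The proteasome degrades proteins that carry chains of ubiquitin. Its barrel-shaped 20S core consists of rings of alpha subunits, which form the gate, around rings of beta subunits, of which Psmb5, Psmb6 and Psmb7 cut the substrate. The 19S regulatory particle binds ubiquitin, removes it and unfolds the substrate with a ring of ATPases. Interferon replaces the catalytic subunits with Psmb8 (for Psmb5), Psmb9 (for Psmb6) and Psmb10 (for Psmb7), giving the immunoproteasome, which produces peptides for MHC class I and is found most in immune cells. The PA28 cap of Psme1 and Psme2 is induced with it, PA28 gamma (Psme3) is a nuclear cap, and Psme4 encodes the cap PA200.

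Acute libraries held from 19049500 to 21053000 counts on genes (rounded). Those of the continuous cohort held from 19112900 to 21783000 for hippocampus and from 18612600 to 20868900 for liver. Of the 44 members, 41 were expressed highly enough to be tested in the acute hippocampus, 43 in the continuous hippocampus and 42 in the liver. The treatment labels held: Fkbp5, a glucocorticoid-induced gene, rose with CORT in each tissue and genotype, by 0.58 to 1.10 on the log2 scale in hippocampus and by 3.43 and 4.14 in liver. Ube3a was lower in AS than in WT liver, by log2 fold changes of -0.55 with vehicle and -0.48 with CORT. In hippocampus its gene count covers the whole gene and not the deleted exon alone, and its genotype difference lay between -0.06 and 0.14 without passing the test. Mice 9 (AS vehicle) and 13 (WT vehicle) of the continuous hippocampus were left out, so that both vehicle groups there had n = 4. Their exclusion as technical outliers followed the methods of the study. One feature of the acute libraries touches the results below. Reads set aside for low alignment quality numbered 1877 to 2237 in mice 1 to 16 and 2640 to 2850 in mice 17 to 24, of which 17 and 18 were AS vehicle mice and 19 to 24 were all the AS CORT mice. In the CORT groups this division cannot be told apart from genotype.

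The promoters of the immunoproteasome and PA28 genes are shown first, because these 5 genes are the members that the liver results below turn on. Each sequence is a window around a RefSeq transcription start, most of it upstream, on GRCm38.p6, read 5′ to 3′ along the gene's strand, and capitals mark the letters of the motifs searched. Psmb8 (ENSMUSG00000024338) lies on chromosome 17 at 34197721 to 34201454, on the plus strand, and Psmb9 lies beside it on the minus strand at 34181987 to 34187764, next to Tap1. Psmb10 lies on chromosome 8 at 105935735 to 105938444 on the minus strand. Psme1 (55578123 to 55581529, plus strand) and Psme2 (55587441 to 55591113, minus strand) are neighbours on chromosome 14. The annotated bodies of Psmb8, Psmb9, Psmb10 and Psme1 overlap those of Gm20496, Tap1, Gm16156 and Emc9, and reads in the overlap may have been counted for either gene or dropped.
Psmb8 (chr17:34197945-34198244, plus strand): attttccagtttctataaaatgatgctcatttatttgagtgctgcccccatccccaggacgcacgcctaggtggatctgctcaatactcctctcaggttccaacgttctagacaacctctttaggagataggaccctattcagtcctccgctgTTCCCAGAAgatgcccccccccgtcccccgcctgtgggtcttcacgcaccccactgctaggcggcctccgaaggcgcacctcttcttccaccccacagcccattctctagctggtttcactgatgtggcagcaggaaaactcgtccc
Psmb9 (chr17:34187281-34187580, minus strand): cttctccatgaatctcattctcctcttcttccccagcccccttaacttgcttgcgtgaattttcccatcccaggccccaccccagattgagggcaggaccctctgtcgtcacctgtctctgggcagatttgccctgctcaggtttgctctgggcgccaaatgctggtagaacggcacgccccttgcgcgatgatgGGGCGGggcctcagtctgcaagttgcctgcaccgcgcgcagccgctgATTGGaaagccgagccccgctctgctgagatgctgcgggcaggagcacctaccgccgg
Psmb10 (chr8:105938343-105938642, minus strand): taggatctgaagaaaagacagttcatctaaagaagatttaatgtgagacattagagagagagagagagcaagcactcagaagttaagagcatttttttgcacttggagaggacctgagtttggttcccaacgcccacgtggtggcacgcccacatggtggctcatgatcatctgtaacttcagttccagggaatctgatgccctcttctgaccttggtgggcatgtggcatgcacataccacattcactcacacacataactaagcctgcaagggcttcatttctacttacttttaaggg
Psme1 (chr14:55578244-55578543, plus strand): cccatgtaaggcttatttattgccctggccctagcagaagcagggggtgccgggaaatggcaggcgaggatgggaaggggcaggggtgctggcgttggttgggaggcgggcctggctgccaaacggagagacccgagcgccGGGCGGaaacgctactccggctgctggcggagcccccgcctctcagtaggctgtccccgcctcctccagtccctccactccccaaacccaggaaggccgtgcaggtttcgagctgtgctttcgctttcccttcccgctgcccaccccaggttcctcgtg
Psme2 (chr14:55590972-55591271, minus strand): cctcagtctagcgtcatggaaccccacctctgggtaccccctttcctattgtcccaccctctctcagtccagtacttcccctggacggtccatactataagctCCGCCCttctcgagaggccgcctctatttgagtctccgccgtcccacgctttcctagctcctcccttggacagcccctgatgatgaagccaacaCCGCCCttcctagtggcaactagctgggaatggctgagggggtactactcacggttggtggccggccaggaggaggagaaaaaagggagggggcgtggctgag

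The search covered both strands for 5 motifs: a STAT site (TTCNNNGAA), a CCAAT box (CCAAT), a GC box (GGGCGG), the core of the antioxidant response element (TGACNNNGC) and a short motif of the glucocorticoid receptor (TGTTCT). The Psmb8 window held a STAT site 97 bases before the start. The Psmb9 window held a GC box at -55 and a CCAAT box at -8, the Psme1 window a GC box at -109, and the Psme2 window shown GC boxes at -147 and -53. Another Psme2 window, around a different start (chr14:55591052-55591351), held GC boxes at -67 and 28. None of the motifs was found in the Psmb10 window. RefSeq windows were found for 37 members, 40 windows in all. Of these, 57.5% held a GC box against 35.7% of all 32851 windows, 37.5% a CCAAT box against 37.4%, 15% an antioxidant response core against 12.4%, 10% a receptor motif against 19% and 5% a STAT site against 8.3%. The 4 members with a receptor motif were Psmb5, Psmc4, Psmc5 and Psmd4. These are matches of letters, and no binding was measured.

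In WT vehicle mice, most proteasome genes were higher in liver than in hippocampus. With both tissues on one TMM scale, 39 of 43 members tested were higher in liver (41.1% of all genes tested were) and 2 were lower (46.8% of all genes), with a median log2 difference of 0.90 against -0.15 over all genes. The 2 lower in liver were Psmc3ip (log2 -3.06) and Psmc5 of the ATPase ring (-0.25). Among the constitutive subunits, 29 of 31 were higher, including all 7 alpha and all 7 beta subunits. Many of these calls for the constitutive particle did not hold in an alternative fit that changed several settings at once. The cause was not tested. With the library number as a block and trends with GC content and length removed, 16 members were higher (40.7% of all genes) and 19 lower (47.5%) in liver. The medians were -0.088 over members and -0.22 over all genes. The constitutive catalytic genes Psmb5 and Psmb6, called higher with log2 differences of 0.39 and 1.23, went to -0.81 and -0.28.

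The immunoproteasome subunits Psmb8 and Psmb9, and the caps Psme1, Psme2 and Psme4, were higher in liver under both settings. Levels are given as CPM (counts scaled to library size) per kilobase of exon on the joint scale. The length is that of all annotated exons of a gene joined (3381 bases for Psmb8, 899 for Psmb5), and comparisons between genes depend on it. Psmb8 was 0.590 ± 0.106 (SD, n = 4) in hippocampus and 6.25 ± 1.03 (n = 5) in liver. The difference was 10.5-fold (log2 3.397, SE 0.16, adjusted p = 3.23e-09, edgeR quasi-likelihood test), and 3.22 on the log2 scale with the trends removed. Psmb9 went from 0.311 ± 0.0339 to 4.59 ± 0.659, which is 14.6-fold (log2 3.87, SE 0.16, adjusted p = 6.08e-10). Both genes were near the bottom of the hippocampal range, with 31 to 76 counts per library for Psmb8 and 10 to 44 for Psmb9 in the continuous cohort. Psmb10 behaved otherwise: at 11.9 ± 0.678 CPM per kb it was already well expressed in hippocampus, and its liver level of 19.4 ± 5.30 was 1.63-fold higher (adjusted p = 0.00256), a call that ended once the trends were removed (log2 0.17, adjusted p = 0.348).

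Set against the constitutive subunit that each replaces, Psmb8 made up 1.74 ± 0.50% of the summed Psmb8 and Psmb5 level in hippocampus and 12.3 ± 1.43% in liver. Psmb9 made up 0.945 ± 0.12% of the Psmb9 and Psmb6 level in hippocampus and 5.63 ± 0.51% in liver. For Psmb10 and Psmb7 the share was 29.1 ± 1.30% in hippocampus and 24.7 ± 4.14% in liver, so that this pair did not show the higher liver share of the others. These shares are per kilobase of exon and depend on the lengths used. Per kilobase, Psmb10 made up 11.9 of the 12.8 CPM per kb of hippocampal immunoproteasome message.

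Of the activators, Psme4 had the smallest adjusted p between the tissues, with 4.08 ± 0.224 CPM per kb in hippocampus and 22.8 ± 0.348 in liver (5.59-fold, adjusted p = 2.6e-11). Psme1 went from 10.3 ± 0.662 to 41.5 ± 2.60 (4.02-fold) and its partner Psme2 from 10.7 ± 0.754 to 56.7 ± 5.07 (5.29-fold). With the trends removed, the log2 difference went from 2.48 to 2.89 for Psme4, from 2.01 to 1.001 for Psme1 and from 2.40 to 0.64 for Psme2. Psme3 was close in both tissues, at 29.4 ± 1.13 and 31.9 ± 1.43, and was not called. The constitutive subunits themselves spanned a 9.29-fold range in hippocampus, from Psmd11 at 7.53 to Psmc5 at 69.9 CPM per kb, and a 5.94-fold range in liver, from Psmd1 at 18.0 to Psma6 at 107. Between mice of these groups their median coefficient of variation was 4.75% in hippocampus and 6.65% in liver, with 19.9% for Psmd11 in liver. The median was higher in some acute groups, at 10.3% in AS vehicle and 11.3% in WT CORT mice. Some members were rare. Psma8 had 1 to 39 counts per library over all tissues, and Psmb11 had no count in any of the 20 liver libraries, which at a floor of 3 counts allows 0.144 to 0.161 CPM.

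Markers of other cells differed between the tissues as well. The summed level of 6 Kupffer cell markers was 3.77 to 4.99 CPM in hippocampus and 154 to 208 in liver, that of 6 microglial markers 184 to 209 and 69.3 to 87.0, and that of 9 lymphocyte markers 0.0678 to 0.359 and 4.11 to 9.20. Their part in the immunoproteasome difference was not tested, and in bulk tissue fewer cells of a type and less RNA per cell cannot be told apart.

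**Figure D1:**
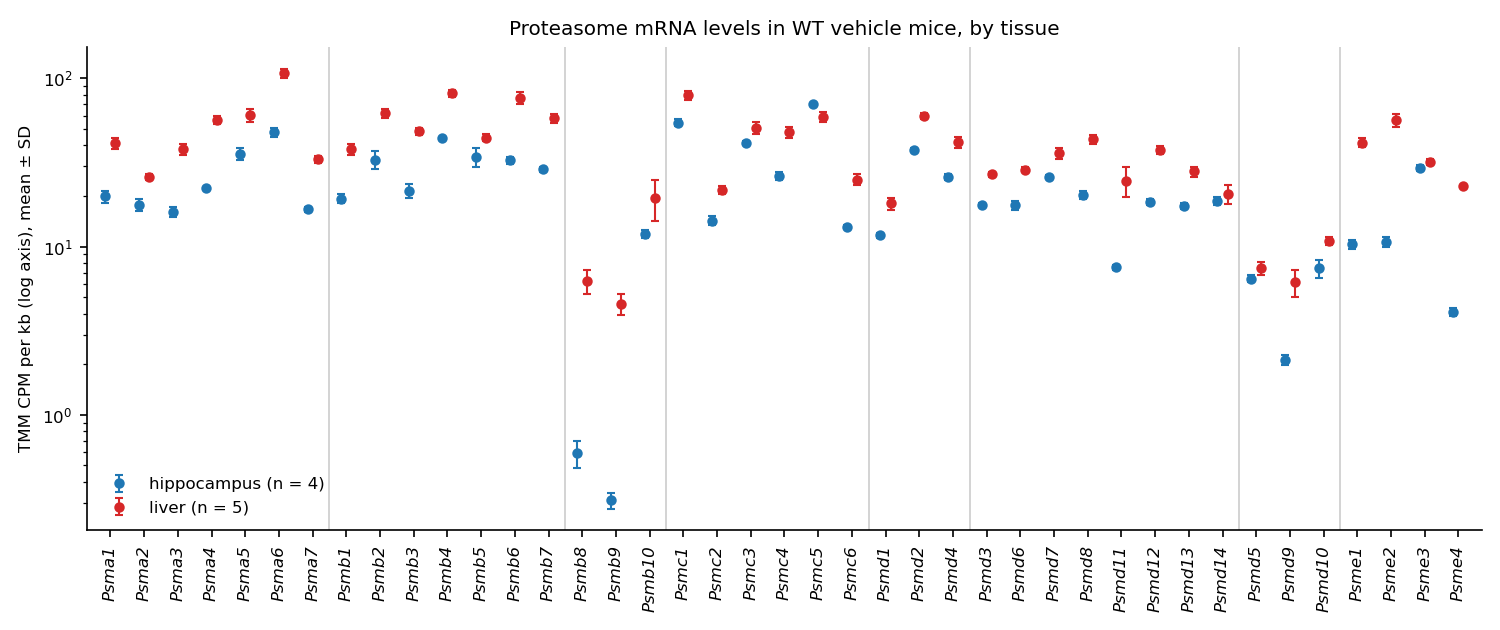
Level of the proteasome genes per kilobase of joined annotated exons (CPM per kb, log axis) in hippocampus and liver of WT vehicle mice, by module, on the joint scale of both tissues, as mean ± SD over mice (Psma8 and Psmb11 are not shown). Psmb8 and Psmb9 sit at 0.590 and 0.311 in hippocampus and at 6.25 and 4.59 in liver, below the constitutive subunits, which lie between 7.53 and 107.

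CORT for 5 days lowered the immunoproteasome genes Psmb8 and Psmb10 and both PA28 genes in liver of both genotypes, while the constitutive subunits that changed rose. In WT mice 4 members fell (9.9% of all genes tested did) and 5 rose (8.73%), and in AS mice 5 fell (15%) and 7 rose (12.6%). The share of members that changed was thus close to that of all genes. No constitutive subunit fell in either genotype, and 4 of 31 rose in each, near the share of all genes that rose (median log2 change 0.11 in WT and 0.05 in AS mice). Of the 3 immunoproteasome subunits 2 fell in WT and 3 in AS mice, and both PA28 genes fell in both. The genes called in both genotypes were Psmb8, Psmb10, Psme1, Psme2, Psmc4 and Psme4, which are 66.7% of the WT and 50% of the AS calls. The comparisons in WT and AS mice share no library.

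Psmb8, the immunoproteasome counterpart of Psmb5, was 13.8, 19.8, 14.8, 16.2 and 13.6 CPM in the 5 WT vehicle livers and 11.6, 11.46, 10.1, 10.95 and 11.2 CPM after CORT. Every CORT liver lay below every vehicle liver, and the log2 change was -0.50 (SE 0.11, 95% interval -0.72 to -0.28, adjusted p = 0.0035, edgeR). In AS mice it was 18.8, 17.02, 17.7, 13.6 and 13.3 CPM with vehicle and 10.8, 10.1, 9.22, 12.2 and 10.5 with CORT. These groups did not overlap either, with a log2 change of -0.60 (SE 0.11, adjusted p = 0.00044).

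Psmb10, the counterpart of Psmb7, had the largest fall of the members tested in liver. Its level was 27.9, 34.1, 18.0, 22.9 and 19.4 CPM in WT vehicle livers and 16.5, 16.5, 14.9, 13.6 and 14.5 with CORT (log2 -0.68, SE 0.16, adjusted p = 0.0055). In AS livers it was 36.6, 24.2, 25.3, 19.1 and 22.7 CPM with vehicle and 16.7, 13.5, 15.5, 15.9 and 17.01 with CORT (log2 -0.70, SE 0.16, adjusted p = 0.0031). The vehicle livers were spread more widely than the CORT livers, and the groups did not overlap in either genotype.

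Psmb9, the counterpart of Psmb6, passed the test in AS mice only, with a log2 change of -0.61 (SE 0.14, adjusted p = 0.0027). AS vehicle livers had 16.1, 12.1, 11.8, 10.5 and 13.4 CPM and AS CORT livers 8.90, 8.13, 5.94, 9.72 and 9.20. In WT mice the values were 12.1, 13.4, 13.02, 14.1 and 9.50 CPM with vehicle and 9.90, 11.1, 8.60, 11.1 and 8.52 with CORT, so that the groups overlapped (log2 -0.33, adjusted p = 0.10). The genotypes did not differ detectably in this response, since the interaction (the AS response to CORT less the WT response) was -0.28 with an interval of -0.66 to 0.11. The interval of the interaction was -0.42 to 0.20 for Psmb8 and -0.47 to 0.43 for Psmb10.

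Psme1 and Psme2, the alpha and beta subunits of PA28, fell less. Psme1 was 65.1, 72.8, 67.2, 71.2 and 62.6 CPM in WT vehicle and 57.4, 57.6, 53.2, 52.1 and 59.6 in WT CORT livers (log2 -0.28, SE 0.075, adjusted p = 0.013). In AS livers it was 75.6, 83.0, 67.7, 68.4 and 67.0 with vehicle and 65.0, 60.3, 53.1, 51.7 and 53.2 with CORT (log2 -0.35, adjusted p = 0.0015), again without overlap in either genotype. Psme2 was 72.7, 79.3, 67.0, 82.2 and 68.7 CPM in WT vehicle and 58.7, 65.7, 60.7, 60.9 and 59.9 in WT CORT livers, and its log2 change was -0.27 in both genotypes (adjusted p = 0.0090 and 0.0074). In AS mice 1 vehicle liver, at 69.5 CPM, lay just below the highest CORT liver, at 69.6. The calls of Psmb8, Psmb10, Psme1 and Psme2 held in all 20 fits that left out 1 liver library, in both genotypes, and so did that of Psmb9 in AS mice.

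**Figure D2:**
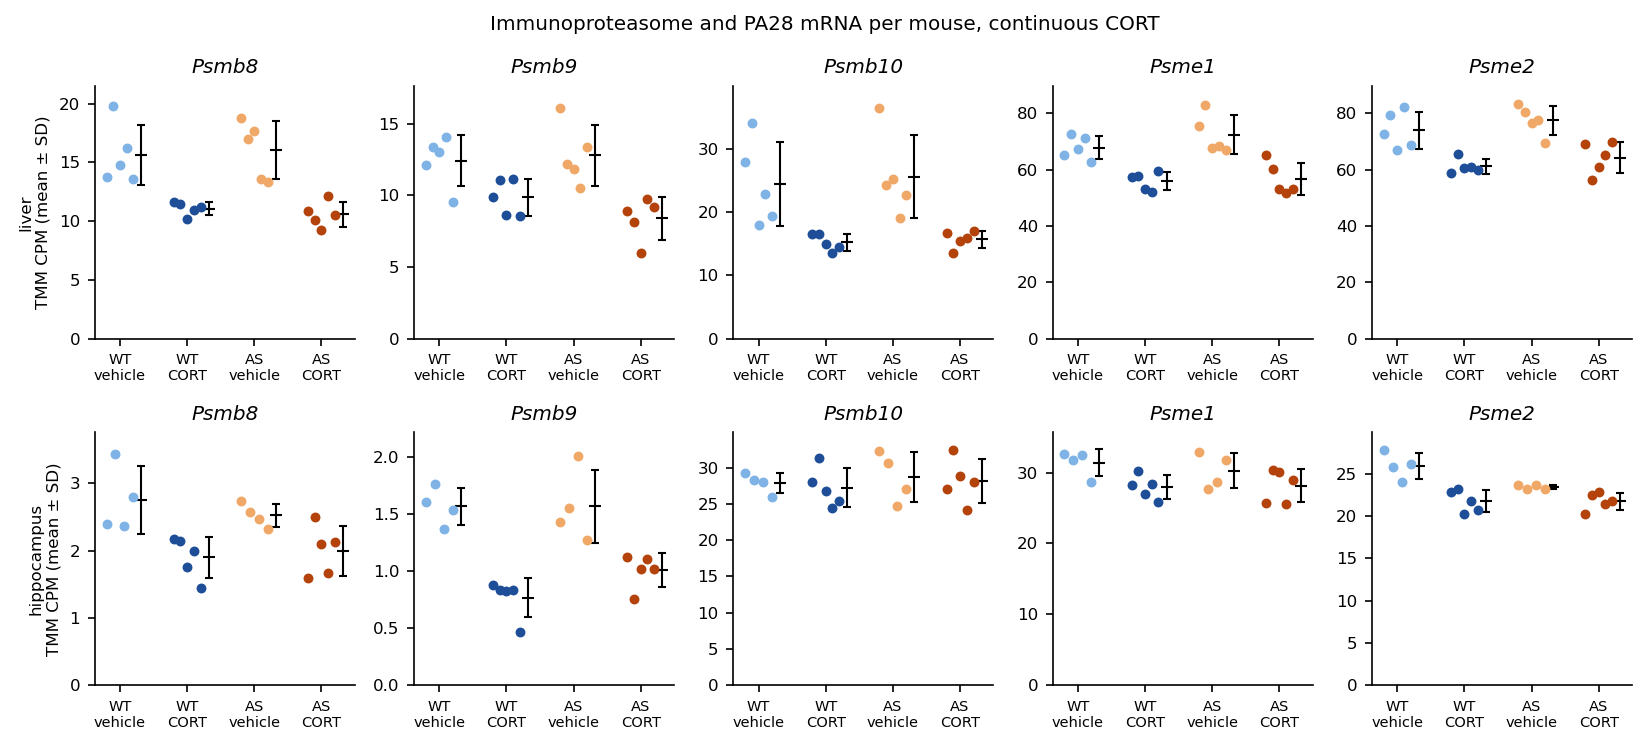
Level (CPM) of the immunoproteasome and PA28 genes in each liver and hippocampus of the continuous cohort by genotype and treatment. Points are mice and the bars beside them the group mean ± SD. In liver, Psmb8 lies between 13.3 and 19.8 CPM with vehicle and between 9.22 and 12.2 with CORT.

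The members that rose in liver belonged to the constitutive particle, its chaperones and the caps PA200 and PA28 gamma. PA200 (Psme4) went from 141.5 ± 2.06 to 163 ± 7.28 CPM in WT mice (n = 5 and 5, log2 0.21, adjusted p = 0.022, edgeR) and from 131 ± 11.8 to 152 ± 9.68 in AS mice (log2 0.22, adjusted p = 0.011). PA28 gamma (Psme3) went from 60.1 ± 3.86 to 72.9 ± 5.58 CPM in AS mice (log2 0.28, adjusted p = 0.0014), and from 69.5 ± 2.996 to 77.8 ± 2.11 in WT mice, where it was not called (adjusted p = 0.058). The ATPase Psmc4 rose in both genotypes (log2 0.24 and 0.20) and the ATPase Psmc2 in WT mice (log2 0.25). In AS mice Psmd6 and Psmd12, subunits of the lid, rose by 0.22 and 0.24 on the log2 scale. The calls of Psmc2, Psmd6, Psmd12 and, in AS mice, Psme3 and Psme4 held without any single library.

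Psmb5, which carries the chymotrypsin-like activity of the constitutive core, was 28.6, 31.1, 30.9, 28.8 and 28.4 CPM in WT vehicle and 41.2, 38.2, 36.0, 34.3 and 29.3 in WT CORT livers (log2 0.28, adjusted p = 0.028, edgeR). The lowest CORT liver lay within the vehicle range. In AS mice it was 32.6 ± 2.51 with vehicle and 36.2 ± 3.61 with CORT and was not called (log2 0.15, adjusted p = 0.20). Its call ended in 6 of the 20 fits with 1 liver left out, as did that of the ubiquitin receptor Psmd4 in WT mice (log2 0.20) in 7, that of the chaperone Psmd9 in AS mice (log2 0.33) in 10 and that of Psmb7 in AS mice (log2 0.15) in 12, with adjusted p-values of up to 0.087, 0.096, 0.15 and 0.13. The call of Psmc4 ended in 4 fits in AS mice (without mouse 2, 8, 11 or 19) and in WT mice without mouse 5 (adjusted p = 0.052), and that of Psme4 in WT mice without mouse 5 or 15 (up to 0.086). Psmb6 was not called in either genotype, with log2 changes of 0.08 and -0.003.

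**Figure D3:**
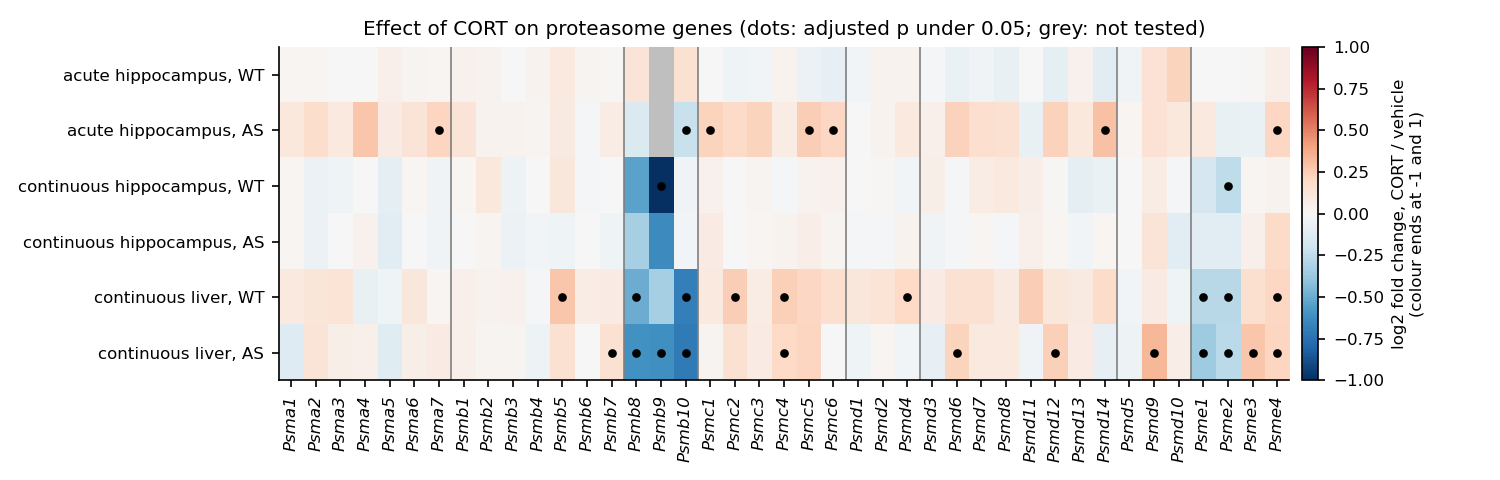
Heat map of the log2 fold change with CORT (blue lower, red higher) for proteasome genes in columns, by module, and for tissue, cohort and genotype in rows; dots mark genes that passed the adjusted threshold and grey a gene not tested. In liver the immunoproteasome genes, Psme1 and Psme2 are blue, between -0.70 and -0.27, and the constitutive subunits mostly red (28 of 31 in WT and 21 of 31 in AS mice). Most of these rises were not called, and subunits read in the same livers are not independent counts. The median log2 change over all genes was -0.005 in WT and -0.003 in AS livers.

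Summed per kilobase, the 3 immunoproteasome genes went from 22.4 ± 4.67 to 14.9 ± 0.9999 CPM per kb with CORT in WT livers and from 23.3 ± 4.98 to 14.6 ± 1.25 in AS livers. PA28 alpha and beta together went from 72.6 ± 5.40 to 60.0 ± 2.16 and from 76.7 ± 5.52 to 62.1 ± 4.13. The constitutive 20S core stayed within its spread between mice, at 571 ± 27.0 and 596 ± 26.0 in WT and at 590 ± 30.2 and 601 ± 33.0 in AS livers. The 19S particle was 479 ± 26.1 and 532 ± 18.0 in WT and 494 ± 30.4 and 522 ± 24.6 in AS livers. Of the message for all 6 catalytic subunits, the immunoproteasome share was 14.4 ± 2.1% with vehicle and 9.31 ± 0.19% with CORT in WT livers, and 14.4 ± 2.5% and 9.10 ± 0.72% in AS livers.

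A ratio of an immunoproteasome subunit to the subunit it replaces does not depend on the scaling of the library. In liver all 6 ratios fell with CORT, and in each the 5 CORT livers lay below the 5 vehicle livers (p = 0.00794 in each, 2-sided exact permutation test, the smallest that 5 against 5 allows; adjusted p = 0.0204 over 18 ratios). The log2 change in WT and AS mice was -0.75 and -0.74 for Psmb8 to Psmb5, -0.41 and -0.61 for Psmb9 to Psmb6, and -0.73 and -0.83 for Psmb10 to Psmb7. The margin was narrow for Psmb9 to Psmb6. Its lowest vehicle and highest CORT ratios were -3.281 and -3.292 in WT and -3.3535 and -3.3543 in AS livers. A ratio shows unequal change and not which of its genes moved.

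**Figure D4:**
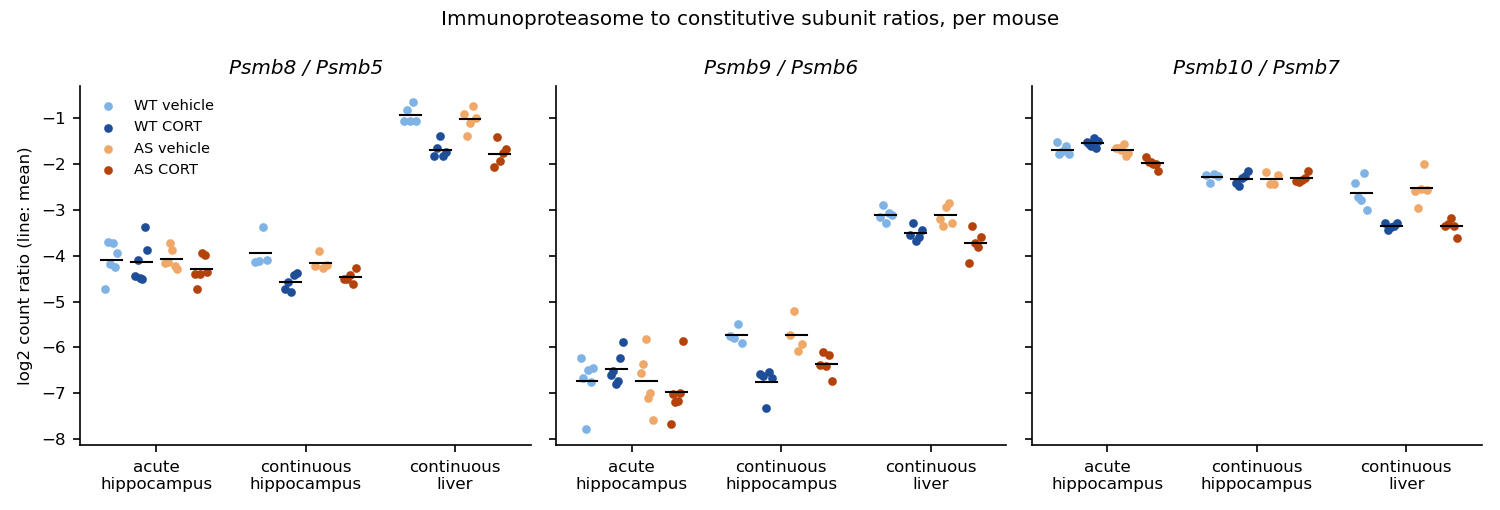
Log2 ratio of each immunoproteasome subunit to the constitutive subunit it replaces, for each mouse (points) with group means (lines), in the acute hippocampus, continuous hippocampus and liver. In liver every CORT mouse lies below every vehicle mouse of its genotype in all 3 ratios, whereas Psmb10 to Psmb7 overlaps in the continuous hippocampus.

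Markers of immune and vessel cells fell in the same livers. Of the 6 Kupffer cell markers 5 fell in each genotype, and their summed level was 113.7 to 153.4 CPM in WT vehicle and 57.5 to 84.9 in WT CORT livers, and 151 to 211 and 57.6 to 85.5 in AS livers. The 9 lymphocyte markers summed to 3.03 to 6.83 CPM and 0.495 to 1.69 in WT and to 4.51 to 6.88 and 1.10 to 2.25 in AS livers, and both of the 2 that could be tested fell. Of 5 endothelial markers 3 fell in WT and 5 in AS mice, with summed levels of 64.8 to 104 and 50.5 to 87.8 CPM in WT livers. Red blood cell markers fell too, 2 of 5 in WT and 4 of 5 in AS mice. Reads on no gene also differed, making up 19.1 to 23.3% of WT vehicle and 17.8 to 19.6% of WT CORT libraries, and 18.1 to 20.8% and 15.4 to 18.3% in AS mice. The part of these cells and reads in the changes of the proteasome genes in liver was not tested.

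Part of the MHC class I pathway fell in the same livers. Of 10 genes for peptide loading of MHC class I and its control, 5 fell in WT and 7 in AS livers with CORT and none rose, where 9.9% and 15% of all genes fell (medians -0.23 and -0.40 on the log2 scale, against -0.005 and -0.003 over all genes). Tap1, a subunit of the peptide transporter and the neighbour of Psmb9, fell by 0.43 in WT and by 0.83 in AS livers. Tapbp, which holds MHC class I at that transporter, fell by 0.21 and 0.48. Nlrc5, the transactivator of MHC class I genes, fell by 0.77 and 0.75, and Irf1, an interferon-induced transcription factor, by 0.58 and 0.50.

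Among 22 assembly factors and proteins bound to the proteasome, 5 rose and none fell in WT livers, and 3 rose and 1 fell in AS livers. Of all genes, 8.73% rose in WT livers, and 12.6% rose and 15% fell in AS livers, so that the AS count of rises was near the background. Ubqln4, a shuttle for ubiquitinated proteins, rose by 0.49 and 0.43 on the log2 scale, and Ube3c, a ligase on the proteasome and a relative of Ube3a, by 0.18 and 0.32. Pomp, the maturation factor of the core, rose in WT livers (0.19), and Psmf1, an inhibitor of the proteasome, fell in AS livers (-0.16). Of 7 genes that control the transcription of proteasome genes, only Nfyb was called, and it was lower in both genotypes (-0.31 and -0.51). Of 6 genes for ubiquitin and its activating enzymes, Ubb was called in WT livers (0.45) and none in AS livers (edgeR, with none at an unadjusted p under 0.05).

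In the continuous hippocampus the constitutive proteasome did not change detectably with CORT, and the members called by edgeR were Psmb9 of the immunoproteasome and Psme2 of PA28. In WT mice 2 members fell (2.11% of all genes tested did) and 0 rose (0.803%). In AS mice 0 of 43 were called (3.77% of all genes), with 2 at an unadjusted p under 0.05, Psmb9 and Psme4. Psme4 was 39.0 to 44.7 CPM in AS vehicle and 45.7 to 48.8 CPM in AS CORT mice, without overlap (log2 0.19, adjusted p = 0.068 in edgeR), and was the 1 member that DESeq2 called (adjusted p = 0.035). None of the 31 constitutive subunits reached an unadjusted p under 0.05 in either genotype, in edgeR, and their median log2 change was 0.0026 in WT and 0.0012 in AS mice.

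Psmb9 fell in WT mice by 1.03 on the log2 scale (SE 0.19, interval -1.41 to -0.65, adjusted p = 0.0046, edgeR). Its level was 1.61, 1.77, 1.37 and 1.53 CPM in WT vehicle mice 1, 4, 6 and 17 and 0.880, 0.839, 0.830, 0.832 and 0.463 CPM in WT CORT mice 3, 5, 12, 15 and 20. In AS mice it was 1.44, 1.56, 2.02 and 1.27 CPM with vehicle and 1.13, 0.756, 1.02, 1.11 and 1.02 with CORT, a log2 change of -0.64 that missed the threshold (adjusted p = 0.066). The CORT mice lay below the vehicle mice in both genotypes, and the interaction of 0.39 had an interval of -0.14 to 0.92. These are low levels, of 10 to 44 counts per library, and the WT call held in all 18 fits without 1 library.

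Psme2 fell in WT mice from 27.8, 25.9, 24.1 and 26.2 CPM to 22.8, 23.3, 20.3, 21.8 and 20.7 CPM (log2 -0.26, SE 0.054, adjusted p = 0.012, edgeR). Without WT vehicle mouse 1 the call ended (adjusted p = 0.0512). In AS mice it was 23.7, 23.2, 23.6 and 23.2 CPM with vehicle and 20.3, 22.5, 22.8, 21.4 and 21.8 with CORT (log2 -0.11, adjusted p = 0.37), and the interaction of 0.15 had an interval of -0.002 to 0.30. Psmb8 was not called in either genotype, with log2 changes of -0.53 in WT and -0.34 in AS mice (adjusted p = 0.091 and 0.34). Psmb10, by far the most abundant of the immunoproteasome messages there, stayed at 27.9 ± 1.38 and 27.2 ± 2.68 CPM in WT mice and at 28.7 ± 3.46 and 28.1 ± 3.04 CPM in AS mice.

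The ratio of Psmb9 to Psmb6 changed by -1.01 in WT and -0.63 in AS mice, and that of Psmb8 to Psmb5 by -0.65 and -0.31, with no overlap of the groups in any of these 4 (p = 0.0159, exact permutation test, the smallest that 4 against 5 allows; adjusted p = 0.026). For Psmb8 to Psmb5 in AS mice the margin was narrow, with a lowest vehicle ratio of -4.274 and a highest CORT ratio of -4.277. Psmb10 to Psmb7 changed by -0.04 and 0.01 (adjusted p = 0.70 and 0.89, exact permutation test). Of 9 MHC class I genes tested, H2-K1, H2-D1 and B2m, which encode its chains, fell in WT mice (log2 -0.49, -0.29 and -0.34), and H2-D1 fell in AS mice (-0.26). Among all 14949 genes tested, 316 fell in WT and 261 in AS mice. None of the genes of the other 3 pathway lists was called in edgeR, with 5 in WT and 3 in AS mice at an unadjusted p under 0.05.

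Microglial markers were also lower in these mice. 3 of 6 fell in WT and 2 in AS mice, with summed levels of 254 to 283 and 214 to 240 CPM in WT and of 234 to 264 and 211 to 238 CPM in AS mice. Of 5 endothelial markers 2 and 3 fell. Among all 14949 genes tested, 316 fell in WT and 261 in AS mice. The neuronal markers gave 0 calls of 6 in either genotype in edgeR, with 0 at an unadjusted p under 0.05. The share of choroid plexus differed between dissections, with summed markers of 77.001 to 2887 CPM in WT vehicle and 36.5 to 126 in WT CORT mice. In AS mice the sums were 83.8 to 326 CPM with vehicle and 46.3 to 500 with CORT. The part of these cells in the fall of Psmb9 and Psme2 was not tested.

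In the acute hippocampus of WT mice no proteasome gene was called 3 h after CORT. The count was 0 of 41 in edgeR (1.48% of all genes were called) and 0 in DESeq2, with 3 genes at an unadjusted p under 0.05: Psmd10, Psmb10 and Psmd9, with log2 changes of 0.22, 0.15 and 0.15. In AS mice 7 members were higher (8.25% of all genes tested) and 1 was lower (9.62%), with a median log2 change of 0.10 over members and 0.006 over all genes. Of the modules, the ATPase ring had the most calls, with 3 of 6 (Psmc6, Psmc1 and Psmc5, log2 0.21, 0.23 and 0.24). Psmd14, the lid subunit that removes ubiquitin, Psma7 of the alpha ring, Psme4 and Psmc3ip were the others called higher, and Psmb10 was called lower. The calls of Psmc6, Psmc1, Psmc5 and Psma7 ended in 10, 10, 11 and 17 of the 24 fits that left out 1 library (adjusted p up to 0.12, 0.11, 0.11 and 0.13), that of Psmc3ip in 3 (without mouse 14, 16 or 23, up to 0.067) and that of Psme4 in 2 (without mouse 15 or 21, up to 0.059).

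A single library also stood apart in this cohort. WT CORT mouse 8 was the highest of its group for 28 of the 31 constitutive subunits, for example Psma1 with 60.1 CPM against 43.4 to 48.4 in the other 5 mice. In the study this mouse mostly explained a main axis of variation over all genes. How many of all genes were highest in it was not counted, so the number shows nothing particular to the proteasome. Without it, 13 in place of 8 of the 41 members were called for CORT in AS mice, where 21.6% in place of 17.9% of all genes were. For the interaction 9 in place of 2 members were called, and 9.27% in place of 4.49% of all genes.

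Several of the called genes also differed along the division of the acute libraries by low-quality reads. Reads on no gene made up 15.5 and 15.8% in mice 17 and 18, 13.1 to 14.7% in mice 13 to 16 and 14.5 to 15.9% in AS CORT mice. Mice 17 and 18, AS vehicle mice on the same side of the division as the AS CORT mice, had Psmd14 levels of 42.5 and 46.5 CPM, against 34.5, 36.9, 34.8 and 36.5 in AS vehicle mice 13 to 16 and 43.8 to 50.7 in the AS CORT mice. Psmc6 averaged 52.8 CPM in mice 17 and 18, 41.2 in mice 13 to 16 and 52.1 in AS CORT mice, and Psma4 65.9, 44.4 and 62.5. Psme4 was otherwise, at 34.2 and 36.4 CPM in mice 17 and 18, 31.0 to 36.2 in mice 13 to 16 and 38.7 to 41.0 in AS CORT mice. Its log2 change was 0.17 with the covariate (adjusted p = 0.67). Compared among vehicle-treated AS mice alone, 9 members were higher in mice 17 and 18 than in mice 13 to 16 (4.36% of all genes) and 0 were lower. With the division as a covariate, 0 members were called for CORT in AS mice (1.03% of all genes), for AS against WT mice with CORT (0%) and for the interaction (0.00684%). Only the AS vehicle group has mice on both sides, so the covariate was set by mice 17 and 18 against mice 13 to 16. When AS CORT mice were compared with mice 17 and 18 alone the count was 0 (0.89%), and with mice 13 to 16 alone it was 17, of which 15 were higher (14.3%). The comparisons with mice 13 to 16 alone were added after the data were seen. The part of the division in the rise of these genes cannot be told apart from genotype among the CORT mice.

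Psmb10 averaged 18.6 CPM in mice 17 and 18 and 19.2 in mice 13 to 16 (log2 -0.05, adjusted p = 0.84), against 16.3 in AS CORT mice. Its lowest, median and highest levels were 16.3, 17.3 and 20.4 CPM in WT vehicle, 17.8, 19.4 and 21.2 in WT CORT, 17.4, 19.2 and 20.3 in AS vehicle and 15.2, 16.2 and 17.5 in AS CORT mice. The AS groups overlapped by a narrow margin, with vehicle mouse 17, at 17.4 CPM, just within the AS CORT range. With CORT it fell in AS mice (log2 -0.22, SE 0.062, adjusted p = 0.016, edgeR) and had a log2 change of 0.15 in WT mice (adjusted p = 0.34), and the interaction was -0.37 (SE 0.087, adjusted p = 0.029). The interaction was of like size with the covariate, at -0.34, but was not called (adjusted p = 0.89), and it ended in 5 of the 24 fits without 1 library (mouse 2, 3, 14, 15 or 16). With trends of GC content and length removed, the fall in AS mice was -0.14 (adjusted p = 0.060) and the interaction -0.22, neither of them called. Markers of other cells moved with Psmb10 in AS mice: 3 of 5 endothelial markers fell, with summed levels of 68.2 to 92.0 CPM with vehicle and 51.2 to 65.6 with CORT, and the lymphocyte markers, none of which could be tested, summed to 0.341 to 0.694 and 0.147 to 0.335 CPM. Microglial sums overlapped, at 218 to 289 and 206 to 253 CPM, and 2 of 6 of these markers fell, where 9.62% of all genes fell. Their part in the fall of Psmb10 was not tested.

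Psmd14 had the opposite interaction, 0.40 (SE 0.10, adjusted p = 0.034, edgeR). Its lowest, median and highest levels were 38.4, 40.9 and 45.1 CPM in WT vehicle, 35.1, 37.7 and 44.8 in WT CORT, 34.5, 36.7 and 46.5 in AS vehicle and 43.8, 47.2 and 50.7 in AS CORT mice. With the covariate the interaction was 0.19 (adjusted p = 0.89), and it was 0.19 with mice 17 and 18 and 0.50 with mice 13 to 16 as the only AS vehicle mice. It ended in 11 of 24 fits without 1 library, and with GC and length trends removed it was 0.24 and not called. Psmb10 and Psmd14 were the 2 members with a called interaction (3.06% of all genes were called lower and 1.43% higher).

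**Figure D5:**
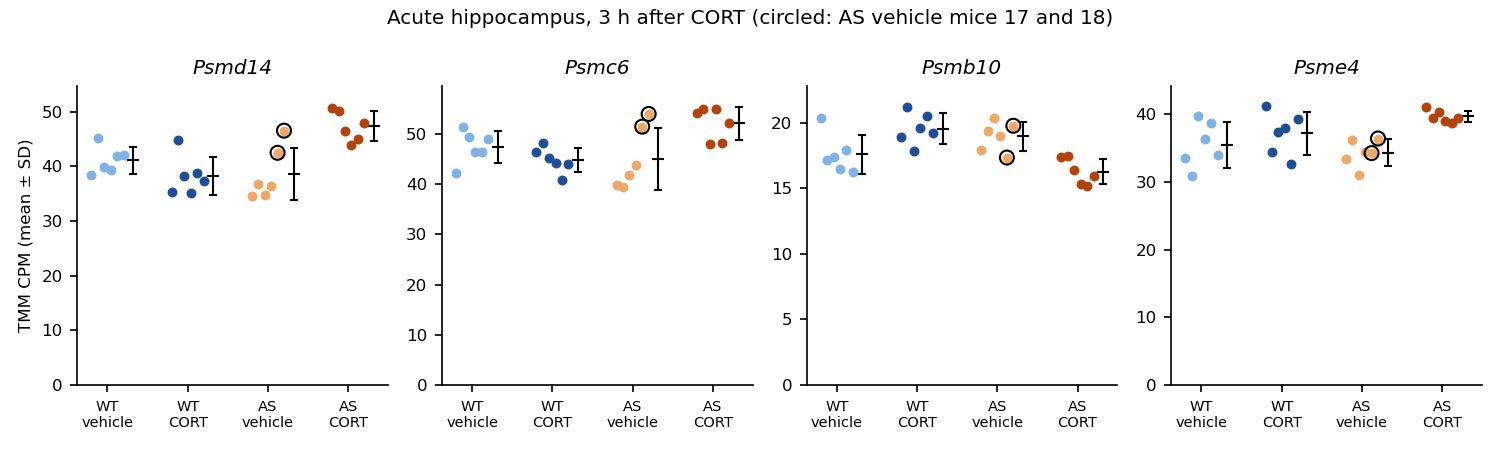
Level (CPM) of Psmd14, Psmc6, Psmb10 and Psme4 in each mouse of the acute cohort by group, with the mean ± SD beside the points and AS vehicle mice 17 and 18 circled. Psmd14 in AS vehicle mice 17 and 18 reaches 42.5 and 46.5 CPM, near or within the AS CORT range of 43.8 to 50.7, and Psmb10 in these mice averages 18.6 CPM against 19.2 in mice 13 to 16.

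The ratio of Psmb10 to Psmb7 changed by 0.15 on the log2 scale with acute CORT in WT mice (p = 0.028, adjusted p = 0.042, exact permutation test) and by -0.29 in AS mice (p = 0.0022, the smallest that 6 against 6 allows, adjusted p = 0.0204, exact permutation test). Mice 17 and 18 had ratios of -1.83 and -1.76, mice 13 to 16 -1.70 to -1.57 and AS CORT mice -2.14 to -1.85, so that mice 17 and 18 lay between the others. The remaining 4 acute ratios were not called. Of the pathway genes, Tapbp and Tap2 were lower in AS mice with CORT (log2 -0.23 and -0.24), as were Nfe2l1, an activator of proteasome genes (-0.24), and Uba1, the main ubiquitin-activating enzyme (-0.21). The assembly list had 2 of 22 genes higher and 3 lower, where 8.25% and 9.62% of all genes were. With the division as a covariate, 0 of these 9 pathway genes were called in edgeR, and the sign turned for Sem1, from 0.40 to -0.018, and for Ubqln4, from -0.24 to 0.027.

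Genotype alone left the proteasome genes without a call in vehicle-treated mice. AS against WT gave 0 members in the acute hippocampus (0.157% of all genes, 2 members at an unadjusted p under 0.05, 0 in DESeq2), 0 in the continuous hippocampus (0.0134%, 3 members) and 0 in liver (0.0163%, 4 members), all in edgeR. The liver gene with the smallest p was Psme3, with a log2 difference of -0.21 (adjusted p = 0.235). Among CORT mice, AS against WT gave 0 in the continuous hippocampus (0.0401%) and 0 in liver (0.277%), in edgeR, with 0 members at an unadjusted p under 0.05 in both. The acute cohort gave 11 members higher (11.7%) and 2 lower (13.2%) in AS mice, and 0 with the division as a covariate. Psmd14 (0.31, adjusted p = 0.0031) and Psmb10 (-0.26, adjusted p = 0.0034) had the smallest adjusted p in edgeR. The calls of these 2 genes held in all 24 fits without 1 library, and those of the other 11 each ended in 3 to 17 of them (adjusted p up to 0.11). With the covariate, Psmd14 was at -0.011, and the sign turned for 10 of the 13 called genes in all. Only the AS vehicle group has mice on both sides of the division, so the covariate rests on few mice. None of these turned values was called. The interaction gave 0 members in the continuous hippocampus and in liver (0% of all genes in both), with 1 and 3 members at an unadjusted p under 0.05 in edgeR. The 3 liver genes were Psmd4, Psma1 and Psmd3, with interactions of -0.23, -0.22 and -0.16.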

How the data were processed

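RNA-seq libraries of 64 samples from 2 cohorts were used, grouped by the genotype, treatment and tissue in their labels, and no column of the tables was left without a sample (0 columns). The authors sequenced stranded mRNA libraries in paired reads of 100 bases, checked them with FastQC and MultiQC, aligned them with STAR to mm10, counted reads per gene with HTSeq-count and deposited raw counts per gene, neither normalized nor pooled. The annotation release and the strand setting of counting are not given in the sources used here, so that overlapping genes and near copies (Psme2b for Psme2, pseudogenes of Psmb5, Psmb6 and Psmb7) are uncertain. Reads on no gene were 13.0 to 15.9% of the acute, 11.7 to 13.9% of the continuous hippocampal and 15.4 to 23.3% of the liver libraries and entered neither library sizes nor tests. Symbols and positions came from GENCODE on GRCm38 and were found for 52133 and 55480 gene IDs. No pair of libraries held identical values.

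Genes were tested with over 20 normalized counts in at least 3 libraries of a group, which left 14611, 14949 and 12273 genes in the 3 sets and 15320 between tissues. Each set was fitted with edgeR 4.0.16 (TMM, quasi-likelihood F test, R 4.3.3) with 1 coefficient per group, and Benjamini-Hochberg adjustment ran over all genes tested in a comparison, with 0.05 as the threshold. CPM are TMM-normalized within a set, and SE is the log2 fold change over the root of F. The fit between tissues has its own scale. Ratios of subunit counts used a pseudocount of 0.5 and exact permutation tests in SciPy 1.17.1. P-values measure the spread between these mice, and intervals and floors of 3 counts cover counting error or this spread only.

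The members, gene lists and tests were chosen with earlier results of these data known. Described in full were the catalytic subunits and their immunoproteasome counterparts, the activators, up to 5 called members per comparison by adjusted p and up to 4 called genes of the pathway lists, with a few further called members named beside them after their values were seen. Hippocampal and liver libraries of the continuous cohort carry the same numbers, with the same genotype and treatment, but no label ties a number to the same mouse. The number served as a block in an alternative fit between tissues. Over numbers 1, 4, 6 and 17 the deviations from the group means correlated at 0.028, 0.024, 0.013 and 0.031. Alternatives were DESeq2 1.42.0, other scaling, no filter, removal of GC and length trends (natural splines with 5 degrees of freedom), the division of the acute libraries as a covariate, and leaving out each library. The tests were checked on simulated counts.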

Additional observations from a re-analysis of the deposited data

Results flagged for a closer look

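Of 140 groups of member levels that were checked for a mouse far from the others of its group, 6 held one, where chance alone gives about 5% of groups. In 3 of them the gene was Psmb9, which had few counts in hippocampus. It was 1.05 CPM in acute AS CORT mouse 24 against 0.294 to 0.501 in the other mice, 0.756 in continuous AS CORT mouse 8 against 1.02 to 1.13, and 0.463 in continuous WT CORT mouse 20 against 0.830 to 0.880. The lid subunit Psmd12 was 54.2 CPM in acute WT CORT mouse 8 against 40.9 to 45.9 in its group. Psme3 was 125.5 CPM in the hippocampus of continuous AS vehicle mouse 2 against 118 to 119, and Psme4 was 175.9 CPM in the liver of WT CORT mouse 15 against 159 to 162.

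The CORT effect differed between the genotypes for 2 members in the acute hippocampus, by the interaction term of edgeR: Psmd14 with 0.40 and Psmb10 with -0.37 on the log2 scale. These are 2 of 41 members tested, where 4.49% of all genes were called, so that the count is near the background. Psmd14 was 42.5 and 46.5 CPM in AS vehicle mice 17 and 18, which lie on the side of the AS CORT mice in their low-quality reads, and Psmb10 averaged 18.6 CPM in these mice against 19.2 in mice 13 to 16. The covariate fit called neither interaction, and with mice 17 and 18 as the only AS vehicle mice the interaction of Psmd14 was 0.19.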

How the results depend on the processing

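Counts are of members called in edgeR unless stated. In the acute hippocampus, removal of GC and length trends gave 1 call for CORT in WT mice. For CORT in AS mice (8 calls), no filter gave 3, the division covariate 0, leaving out mouse 8 gave 13, mice 17 and 18 as the only AS vehicle mice 0 and mice 13 to 16 alone 17. For AS against WT with CORT (13 calls), no filter gave 4, trend removal 7 and the covariate 0. For the interaction (2 calls), no filter gave 1, trend removal 0, the covariate 0, leaving out mouse 8 gave 9, mice 17 and 18 alone 0 and mice 13 to 16 alone 14. In the continuous hippocampus, CORT in WT mice (2 calls) gave 1 with no filter and 1 with only the 2 groups fitted, and CORT in AS mice gave 1 in DESeq2. In liver, CORT in WT mice (9 calls) gave 5 with no filter. The cause of these changes was not tested.

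Without 1 library at a time, acute calls ranged from 0 to 0 (CORT in WT), 3 to 15 (CORT in AS), 0 to 0 (AS against WT, vehicle), 3 to 17 (CORT) and 0 to 9 (interaction). The continuous hippocampus gave 1 to 2, 0 to 1 and 0 for the rest, the liver 5 to 10, 9 to 13 and 0 for the rest, the tissue comparison 40 to 41 and the ratios 9 to 12 of 18.

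Signs turned for single genes. The covariate is set by AS vehicle mice 17 and 18 against mice 13 to 16 alone, and none of the values with it was called. With the covariate, AS against WT with CORT gave log2 values of -0.11 for Psmc5, -0.12 for Psmd12, -0.074 for Psmc1, -0.14 for Psmc6, -0.011 for Psmd14, -0.067 for Psma7, -0.29 for Psma4, -0.15 for Psmd7, -0.0093 for Psma3 and 0.027 for Psme3. Psmc6 with CORT in AS mice was -0.017 with the covariate and -0.022 with mice 17 and 18 alone. Between tissues the replicate block by mouse number gave 40 calls, and the block with GC and length trends removed gave -0.49 for Psmc3, -0.60 for Psmb4, -0.36 for Psma2, -0.28 for Psmb6, -0.28 for Psmd12, -1.19 for Psma6, -1.10 for Psmc1, -0.46 for Psmd6, -0.088 for Psmc6, -0.81 for Psmb5, -1.16 for Psmb2, -0.31 for Psmc4, -0.14 for Psma1, -1.84 for Psmd10, -0.22 for Psma4, -0.62 for Psmd7, -1.38 for Psma5 and -0.12 for Psmb3. Psmd14 and Psme3, not called between tissues, also turned, to -1.37 and -0.79. Of the other values of called members, all kept their direction: 543 kept their side of the threshold and 82 lost it, and 1188 and 189 did so without 1 library. Psmb9 (6 to 44 counts in hippocampus) and Psmb8 (22 to 76) are limited by depth there.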
